A study of Mus musculus with 30 samples.

Results

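Salivary glands of control-treated NOD.H-2h4 mice were compared between week 16 and week 8. NOD.H-2h4 is an inbred line derived from the diabetes-prone NOD mouse that carries a different MHC haplotype and is used as a model of Sjögren's syndrome. The members were the 5 arrays labelled as IgG-treated at week 16 and the 5 labelled as IgG-treated at week 8, so 10 of the 30 arrays in the series. All mice were females, and all 10 control mice had received 1 intraperitoneal dose of human IgG1 isotype control antibody, 20 mg/kg, at 4 weeks of age. The week is the age of the mouse at gland collection. The other groups used here were anti-CD40L week 16 and anti-CD40L week 8, 5 arrays each, from mice that received 20 mg/kg of an antibody against CD40 ligand at the same age, and IgG week 24, with 5 arrays. No untreated mice and no other strain were analysed here, so the change with age is described in mice that had all been injected, in 1 strain. RNA of the total salivary gland was labelled and hybridised to an Affymetrix mouse expression array. The labels call the 5 arrays of a group biological replicates, and each p-value measures the spread between such arrays.

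Salivary glands are made of acini, which make the fluid and most of the protein of saliva, and of ducts, which change its salts and, in the rodent submandibular gland, store kallikreins and growth factors in granular cells. Plasma cells in the gland make dimeric IgA, which is held together by the J chain and carried across the epithelium into saliva. In Sjögren's syndrome lymphocytes gather in the glands, B cells are driven towards antibody production, and CD40 ligand on helper T cells acts on CD40 on B cells. Between week 8 and week 16 the mouse also passes from a young to a grown adult.

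Levels are given on the log2 scale of the deposited table, on which a step of 1 is a doubling of signal, and a change is the week 16 mean minus the week 8 mean with its standard error. A gene counts as called when its Benjamini-Hochberg adjusted p in the limma fit over all 30 arrays was under 0.05. The change with age was broad. Of 12999 genes tested, 6047 were called (46.5%), 3690 of them higher at week 16 (28.4%) and 2357 lower (18.1%). Every list below has to be read against those shares. With quantile normalization 6236 genes were called and the split turned, with 2620 higher (20.2%) and 3616 lower (27.8%). The median change over all genes was -0.06 under that scaling and 0.06 as deposited.

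The arrays of the 2 ages also differed in quality measures. The signal at the 3' end minus that at the 5' end of the Gapdh and beta-actin control transcripts, which is larger when long RNA copies are missing, was 0.291 ± 0.0658 at week 16 against 0.567 ± 0.198 at week 8 (SD, n = 5 each, two-sided exact permutation p = 0.0159, adjusted p = 0.0212 over 4 array measures). The week 16 arrays lay between 0.228 and 0.378 and the week 8 arrays between 0.359 and 0.859, with week 8 replicate 4 the highest. The median correlation of an array with the others was 0.986 at week 16 against 0.972 at week 8, and the interquartile range of its log2 levels was 3.05 at week 16 against 2.79 at week 8; neither measure overlapped between the ages (exact permutation p = 0.00794 for each, the smallest that 5 against 5 allow, adjusted p = 0.0159). When the 3' minus 5' difference was entered in the fit as a covariate, 620 genes were called, 283 higher (2.18%) and 337 lower (2.59%), and 547 of them were also among the 6047. Values with this covariate are therefore given beside the main groups. A 2nd split ran across the ages. Amy1, the parotid amylase gene, had 12.38, 7.93, 8.95, 13.45 and 7.27 in week 16 replicates 1 to 5, against 6.58, 13.61, 13.56, 13.52 and 9.51 in week 8 replicates 1 to 5. Its means did not differ beyond the spread (exact permutation p = 0.46). Week 16 replicates 1 and 4 and week 8 replicates 2, 3 and 4 were thus the arrays with amylase at 10 or more, and Dnase1, a parotid secretory nuclease, was high in the same 5 arrays. At week 8 the amylase split followed the 3' minus 5' difference. That difference was 0.541, 0.651 and 0.859 in replicates 2, 3 and 4, and 0.359 and 0.423 in replicates 1 and 5. Splits by amylase below therefore also split the week 8 arrays by that measure. The defining products of the gland were present in all 10 arrays: Klk1, the main glandular kallikrein, lay between 14.01 and 14.22.

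IgA and the chains that go with it were higher at week 16. Of the 6 immunoglobulin chains tested, 4 rose and none fell, with a median change of 2.04 over the 6. In bulk tissue, fewer cells of a type and less RNA per cell cannot be told apart. Igha, the constant region of the IgA heavy chain on chromosome 12, had 13.69, 13.50, 13.13, 13.53 and 13.40 in the week 16 glands, against 11.53, 11.38, 10.52, 10.07 and 9.76 in the week 8 glands. The groups were well apart, with the lowest week 16 gland at 13.13 and the highest week 8 gland at 11.53. Its change was 2.80 ± 0.27 (adjusted p = 3.78e-07), and 2.48 ± 0.33 with the 3' minus 5' covariate (adjusted p = 0.000229). Jchain, which links IgA into dimers, had 12.59, 12.23, 11.49, 12.47 and 11.89 at week 16, against 9.71, 10.09, 10.99, 9.95 and 8.29 at week 8. All 5 week 16 glands lay above all 5 week 8 glands, which was true of 16.4% of all genes tested. The change of Jchain was 2.32 ± 0.34 (adjusted p = 3.56e-05). Igk, read by a kappa light chain probe set, had 10.56, 10.28, 9.69, 10.48 and 10.04 at week 16 and 8.31, 8.48, 9.05, 8.07 and 7.37 at week 8, a change of 1.96 ± 0.23 (adjusted p = 1.07e-05). Its 3 further probe sets differed between the ages by 0.01 to 2.25. Iglv1, a lambda light chain variable gene, rose by 2.12 ± 0.50 (adjusted p = 0.00148), with overlap, since week 8 replicate 1 already had 9.73.

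Kappa variable genes stood among the largest rises of the whole table. Igkv6-20 had 9.15, 7.85, 6.36, 9.80 and 6.28 at week 16, against 5.47, 4.58, 5.82, 4.20 and 3.76 at week 8. Its change of 3.12 ± 0.53 (adjusted p = 0.00012) came with a wide spread among the week 16 glands, of which replicates 1 and 4 were highest. Igkv8-30 rose by 2.42 ± 0.29 (adjusted p = 1.09e-05), with week 16 glands between 11.95 and 12.81. Igkv6-14 rose by 2.72 ± 0.45 (adjusted p = 8.78e-05). Probe sets for variable genes can bind related sequences, so these values are uncertain as to the single gene.

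The other heavy chains tested were not called. Ighm, the IgM heavy chain, had 9.85, 8.48, 7.55, 12.52 and 8.37 at week 16 and 8.47, 8.97, 11.95, 8.49 and 7.64 at week 8. The highest glands of both ages, week 16 replicate 4 and week 8 replicate 3, were amylase-high arrays, and the change of 0.25 ± 0.77 was not called (adjusted p = 0.804); its 10 further probe sets differed between the ages by -0.22 to 2.79. Ighg3, an IgG heavy chain, had 6.24 ± 0.65 at week 16 and 6.62 ± 0.72 at week 8 (SD, n = 5 each), a change of -0.38 ± 0.41 that was not called (adjusted p = 0.452). Igha and Ighm were not tested against each other.

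**Figure D1:**
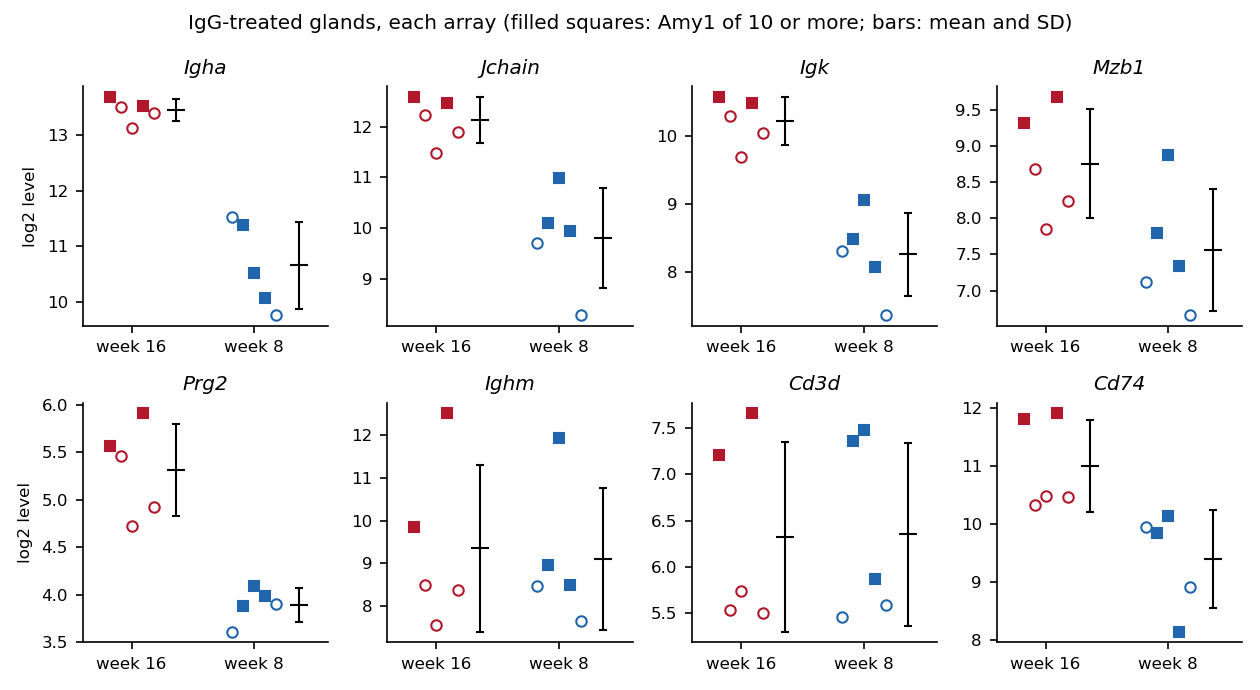
Log2 level of 8 genes in each of the 5 IgG week 16 (red) and 5 IgG week 8 (blue) arrays; filled squares are arrays with Amy1 of 10 or more, open circles the others, and the black bars give the mean and SD. Igha, Jchain, Igk and Prg2 separated the ages in all 10 arrays, whereas Ighm and Cd3d were highest in amylase-high arrays of either age.

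Of 13 plasma cell genes tested, 10 rose and none fell, with a median change of 0.50. Mzb1, a chaperone of antibody-secreting cells, had 9.32, 8.68, 7.86, 9.68 and 8.24 at week 16 and 7.11, 7.80, 8.88, 7.33 and 6.66 at week 8. Replicates 1 and 4 of week 16 were above every week 8 gland, and the other 3 overlapped with week 8 replicate 3. The change of Mzb1 was 1.20 ± 0.34 (adjusted p = 0.00661), and 1.68 ± 0.43 with the covariate (adjusted p = 0.0255). Tnfrsf13b, the TACI receptor for BAFF and APRIL, rose by 0.50 ± 0.21 (adjusted p = 0.0489). Irf4, a transcription factor needed for plasma cell differentiation, rose by 0.53 ± 0.21 (adjusted p = 0.0425). Both genes overlapped between the ages. Over the alternative settings Tnfrsf13b lost its call in 16 of 24 and Irf4 in 14 of 23. Tnfrsf17, the BCMA receptor of plasma cells, changed by 0.41 ± 0.21 without being called (adjusted p = 0.102), and was called with the covariate at 0.84 ± 0.24 (adjusted p = 0.0405). Creld2, Txndc11, Edem1 and Sdc1 also rose, by 0.99, 1.01, 0.42 and 0.77, but these are genes of secretory or epithelial cells too, and all 4 stood at 6.63 or more in every week 8 gland. With the covariate 2 of the 13 genes were called, Mzb1 and Tnfrsf17, while 4 of the 6 immunoglobulin chains were.

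Prg2, the major basic protein of eosinophil granules, had 5.56, 5.46, 4.73, 5.91 and 4.93 at week 16 and 3.61, 3.88, 4.09, 3.99 and 3.91 at week 8. No week 16 gland reached down to the week 8 range, although both are low levels on this array. The change was 1.42 ± 0.22 (adjusted p = 5.93e-05), and it kept its size with the covariate, at 1.45 ± 0.29 (adjusted p = 0.00737), in amylase-low arrays, at 1.28 ± 0.23, and in amylase-high arrays, at 1.75 ± 0.21. Among the 5 eosinophil and mast cell genes tested, Kit, the stem cell factor receptor of mast cells, which ducts and interstitial cells of glands also use, rose by 1.17 ± 0.23 (adjusted p = 0.000334), and the other 3 were not called.

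Few lymphocyte genes were called. Of 12 B cell genes 1 rose and 1 fell, of 9 T cell genes none rose and 1 fell, and of 10 cytotoxic T and NK cell genes none was called in either direction. Ms4a1, the CD20 antigen of B cells, had 6.99, 4.69, 4.70, 7.64 and 4.45 at week 16 and 5.05, 6.55, 6.64, 5.85 and 4.72 at week 8. Cd3d, a chain of the T cell receptor complex, had 7.21, 5.53, 5.74, 7.66 and 5.50 at week 16 and 5.46, 7.37, 7.48, 5.87 and 5.58 at week 8. In both genes the high arrays were week 16 replicates 1 and 4 and week 8 replicates 2 and 3, all of them amylase-high, while the 5th amylase-high gland, week 8 replicate 4, had 5.85 and 5.87. Ms4a1 and Cd3d, named after their values were seen, changed by -0.07 ± 0.59 and -0.02 ± 0.46, and neither was called. The called members were Ebf1, a B lineage transcription factor that stromal and fat cells also use, which rose by 0.68 ± 0.14 (adjusted p = 0.000597), Blk, a B cell kinase, which fell (change -0.51 ± 0.19, adjusted p = 0.0308), and Cd4, the helper T cell coreceptor, which fell (change -0.97 ± 0.29, adjusted p = 0.00869). Week 16 replicate 5 had 8.01 for Cd4, inside the week 8 range. Over 25 alternative settings Blk lost its call in 11 and Cd4 in 6. With the 3' minus 5' covariate none of the 9 T cell genes was called. Cd40, the receptor on B cells, had 6.49, 6.30, 6.06, 6.60 and 6.14 at week 16 and 6.31, 6.81, 6.87, 6.85 and 6.66 at week 8. It was lower at week 16, with overlap, and its change was -0.38 ± 0.16 (adjusted p = 0.0473), and the covariate left -0.09 ± 0.18 (adjusted p = 0.809). Cd40 lost its call in 17 of 24 alternative settings. Cd40lg, its ligand, averaged 4.86 at week 16 and 4.92 at week 8, above the array median in none of the 30 arrays, and was not tested.

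Antigen presentation genes were higher in part. Most interferon genes had changes above 0, but they were called higher less often than all genes tested. Of 9 MHC class II genes 4 rose and none fell. Cd74, the invariant chain that loads class II molecules, had 11.81, 10.33, 10.49, 11.91 and 10.46 at week 16 and 9.95, 9.85, 10.14, 8.15 and 8.92 at week 8. The week 16 glands lay above all week 8 glands, replicates 1 and 4 farthest, and the change was 1.60 ± 0.38 (adjusted p = 0.00186), and 1.01 ± 0.47 (adjusted p = 0.195) with the 3' minus 5' covariate. H2-Ab1, H2-Eb1 and H2-Aa, the class II chains themselves, changed by 1.30 ± 0.41, 1.25 ± 0.42 and 1.19 ± 0.38, and each was called, although 3 of the 5 week 16 glands overlapped with the week 8 range. Of 11 MHC class I and immunoproteasome genes 6 rose, among them Tap2, a subunit of the peptide transporter, by 0.70 ± 0.21, Tapbp, the loading factor tapasin, by 1.01 ± 0.26, Nlrc5, the transcriptional activator of class I genes, by 0.85 ± 0.28, and B2m, the shared light chain, by 0.48 ± 0.17. Of 12 interferon gamma response genes only Irgm2, a GTPase against intracellular pathogens, was called, at 1.13 ± 0.46 (adjusted p = 0.044), although the median change of the 12 was 0.76. That was 8.33% of the list, against 28.4% of all genes called higher. All 12 changes were above 0. Irgm2 lost its call in 14 of 25 alternative settings. With the covariate none of the 9 class II, 11 class I or 12 interferon gamma genes was called, with median changes of 0.68, 0.38 and 0.93 over the lists. Tap2 was left with 0.38 ± 0.26 (adjusted p = 0.386), Tapbp with 0.23 ± 0.23 (adjusted p = 0.586) and Nlrc5 with 0.57 ± 0.36 (adjusted p = 0.338).

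The interferon gamma list had mean levels of 8.85, 6.67, 6.91, 8.61 and 6.83 in the week 16 glands and 6.72, 6.71, 8.39, 6.24 and 6.10 in the week 8 glands. The 3 high arrays were amylase-high, week 16 replicates 1 and 4 and week 8 replicate 3, and amylase-high week 8 replicates 2 and 4 were low. Within amylase-high arrays, 2 of week 16 against 3 of week 8, 10 of the 12 genes were called higher, against 18.3% of all genes, and the median change was 1.60. Within amylase-low arrays, 3 of week 16 against 2 of week 8, none of the 12 was called, where 10.7% of all genes were called higher, and the median change was 0.46. Gbp2, a guanylate-binding protein, shows the pattern, with 10.13, 7.41, 7.65, 9.81 and 7.46 at week 16 and 7.72, 7.37, 9.45, 6.48 and 6.27 at week 8. Its change was 2.21 ± 0.62 in amylase-high arrays (adjusted p = 0.025) and 0.51 ± 0.39 in amylase-low arrays (adjusted p = 0.391). The difference between the 2 kinds of array was not tested, and the part of parotid tissue in the immune values was not tested. At week 8 the amylase-high arrays were also those with the larger 3' minus 5' differences, so the 2 measures cannot be told apart there. MHC class II calls were likewise 5 of 9 in amylase-high and 0 of 9 in amylase-low arrays, whereas immunoglobulin chains were called in both, 4 of 6 and 3 of 6.

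**Figure D2:**
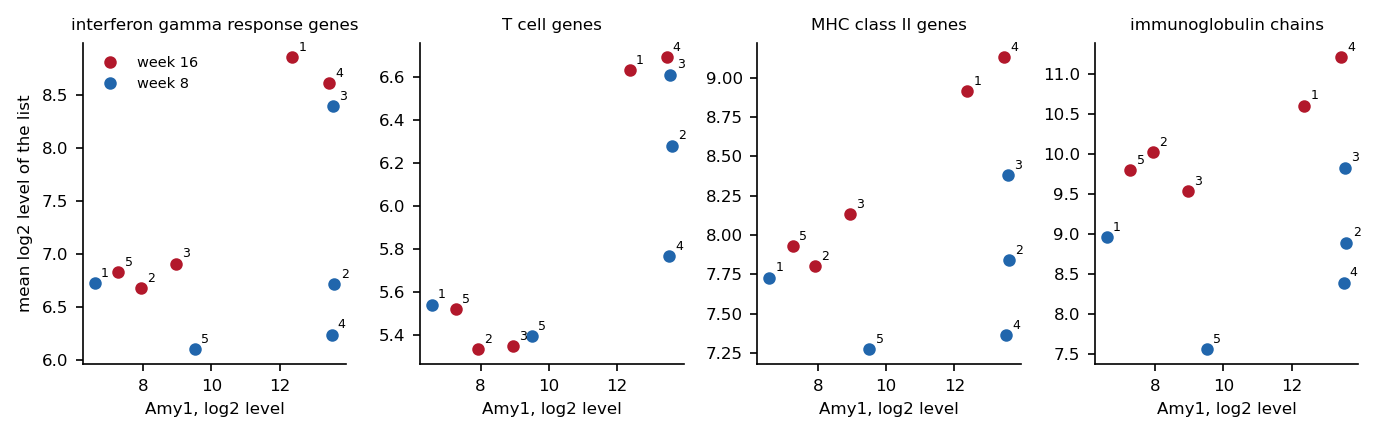
Mean log2 level of 4 gene lists (vertical) against the log2 level of Amy1 (horizontal) in the 5 IgG week 16 (red) and 5 IgG week 8 (blue) arrays; numbers are replicates. Interferon gamma, T cell and MHC class II lists were highest in week 16 replicates 1 and 4, and the immunoglobulin list was higher at week 16 on both sides of the amylase range.

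Of 17 type I interferon response genes 3 were called, all higher (17.6%, against 28.4% of all genes). The median change was 0.50, with 14 of the 17 above 0. With the covariate none was called higher and 1 lower, with a median of 0.25. Oasl2, an antiviral protein of the oligoadenylate synthetase family, had 8.13, 5.78, 6.33, 7.01 and 6.22 at week 16 and 4.75, 4.40, 4.85, 3.77 and 4.32 at week 8. The groups did not overlap, and the change was 2.28 ± 0.60 (adjusted p = 0.00367), and 1.48 ± 0.75 (adjusted p = 0.234) with the covariate. Rsad2, the antiviral enzyme viperin, rose by 0.57 ± 0.19 with overlap. Ddx58, the RNA sensor RIG-I, rose by 0.80 ± 0.22 in its brightest probe set, and its 2 other probe sets differed by -0.32 and 0.61. Of 10 CD40 and NF-kB response genes, Nfkbia and Tnfaip3, both inhibitors of NF-kB, rose, by 0.47 ± 0.10 and 0.34 ± 0.12, and Cd40 itself was the 1 that fell. Nfkbia was higher in every week 16 gland than in any week 8 gland. The only other probe set of Tnfaip3 differed by -0.43, so its direction depends on the probe set. With the covariate none of these 10 genes was called.

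Of 20 macrophage and dendritic cell genes 11 rose and none fell, with a median change of 0.54. Cd163, the scavenger receptor of tissue macrophages, had 5.99, 5.82, 5.75, 5.78 and 5.87 at week 16 and 5.07, 4.94, 5.26, 4.59 and 4.37 at week 8. All week 16 glands were higher, and the change was 0.995 ± 0.26 (adjusted p = 0.00346). Mrc1, the mannose receptor, changed by 0.71 ± 0.26 (adjusted p = 0.0273), and by 1.17 ± 0.31 with the covariate (adjusted p = 0.0329), the 1 macrophage gene still called there. Cd68, a lysosomal protein, rose by 1.01 ± 0.26, C1qa, a chain of complement C1q, by 0.64 ± 0.22, and Csf1r, the receptor that macrophages need to survive, by 0.55 ± 0.21. Over 25 alternative settings Csf1r lost its call in 15 and C1qa in 9. With quantile normalization 4 of the 20 were called higher, where 20.2% of all genes were. In amylase-low arrays none of the 20 was called higher, where 10.7% of all genes were. None of 9 neutrophil genes was called.

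Of 8 complement genes 4 rose and 1 fell. C1s1, the C1s protease of the classical pathway, had 10.08, 8.66, 8.47, 9.96 and 8.83 at week 16 and 8.11, 7.72, 8.89, 6.78 and 6.47 at week 8, and its change was 1.61 ± 0.34 (adjusted p = 0.000716). Week 16 replicates 1 and 4 were higher than all week 8 glands, and the other 3 overlapped with week 8 replicate 3. C1ra, its partner protease, rose by 1.17 ± 0.23 without overlap, and Serping1, the C1 inhibitor, by 0.94 ± 0.21. Masp1, a protease of the lectin pathway, fell (change -0.41 ± 0.14, adjusted p = 0.0229). With the covariate none of the 8 was called and the median change was 0.34: C1s1 was left with 1.48 ± 0.45 (adjusted p = 0.053), C1ra with 0.94 ± 0.30 (adjusted p = 0.0593) and Masp1 with -0.30 ± 0.18 (adjusted p = 0.329).

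Genes at the output of the circadian clock were higher at week 16. The clock runs in every tissue: CLOCK and BMAL1 (the product of Arntl) bind E-boxes and switch on Per, Cry, Nr1d and the PAR bZIP factors Dbp, Tef and Hlf, whose products repress the activators or bind D-boxes in further genes. Of 13 clock output and repressor genes 11 rose and none fell, with a median change of 0.79. Short promoter stretches of 3 of them are shown because they hold the motifs these factors bind. They run from 250 bases before to 50 after the start site in RefSeq, build GRCm38.p6, 5′ to 3′ on the gene's strand, and capitals mark the E-box CACGTG or the D-box TTATGTAA. Per1 lies at chr11:69098699-69098998 on the plus strand, Tef at chr15:81802423-81802722 on the plus strand, and Per3 at chr4:151044616-151044915 on the minus strand.
Per1 (E-box): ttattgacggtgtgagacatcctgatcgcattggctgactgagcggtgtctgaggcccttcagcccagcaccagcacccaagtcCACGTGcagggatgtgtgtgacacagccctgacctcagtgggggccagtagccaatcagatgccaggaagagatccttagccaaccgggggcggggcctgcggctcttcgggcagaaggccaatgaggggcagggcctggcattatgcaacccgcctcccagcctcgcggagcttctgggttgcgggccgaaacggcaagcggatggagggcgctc
Tef (E-box): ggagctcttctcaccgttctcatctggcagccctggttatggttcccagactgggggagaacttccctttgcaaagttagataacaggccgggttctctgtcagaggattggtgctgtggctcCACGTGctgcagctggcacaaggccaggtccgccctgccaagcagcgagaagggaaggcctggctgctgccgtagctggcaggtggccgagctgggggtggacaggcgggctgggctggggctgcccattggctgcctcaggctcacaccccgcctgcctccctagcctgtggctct
Per3 (D-box, 2 matches): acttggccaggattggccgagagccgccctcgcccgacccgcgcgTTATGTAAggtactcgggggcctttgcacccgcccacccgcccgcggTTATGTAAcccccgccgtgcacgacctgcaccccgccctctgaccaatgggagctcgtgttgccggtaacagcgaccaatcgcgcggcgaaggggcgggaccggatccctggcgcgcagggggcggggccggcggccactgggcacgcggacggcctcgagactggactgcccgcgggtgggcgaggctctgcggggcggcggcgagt
Searched on both strands, the E-box was found in 3 of the 10 output genes that have a promoter in the table, Tef, Per1 and Ciart, and in 8.09% of all 27025 genes with a promoter there. The D-box was found in 1 of the 10, Per3, and in 1.11% of all genes. A match is a description of these letters only.

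Nr1d2, which encodes the repressor REV-ERB beta, had 11.29, 11.28, 11.02, 10.89 and 10.997 at week 16 and 10.34, 10.14, 10.40, 10.10 and 10.22 at week 8. No values overlapped, the change was 0.86 ± 0.15 (adjusted p = 0.000111), and it was 0.76 ± 0.19 with the covariate (adjusted p = 0.0223). Dbp, a PAR bZIP factor with a wide daily swing in many tissues, had 11.25, 11.04, 10.60, 9.94 and 9.38 at week 16 and 9.62, 8.28, 7.05, 7.71 and 9.19 at week 8. Only week 16 replicate 5 fell within the week 8 range, and the change was 2.07 ± 0.61 (adjusted p = 0.00789). Tef, its relative, rose by 0.85 ± 0.23 without overlap (adjusted p = 0.00376), and its 2 further probe sets differed by -0.24 and 0.44. Per1, a light- and hormone-responsive repressor, had 7.86, 8.37, 7.77, 6.68 and 8.63 at week 16 and 6.34, 6.70, 6.10, 7.07 and 7.35 at week 8, with week 16 replicate 4 alone inside the week 8 range. Its change was 1.15 ± 0.32 (adjusted p = 0.0051). Per2 rose by 0.51 ± 0.17, and was the other output gene called with the covariate, at 0.76 ± 0.21 (adjusted p = 0.0402). Per3 rose by 0.96 ± 0.30 and Bhlhe40, the repressor DEC1, by 1.17 ± 0.23. Ciart, a further repressor, had a change of 0.24 ± 0.24 and was not called. Usp2, a deubiquitinase under clock control that is on none of the lists, was among the 12 largest rises, at 2.64 ± 0.54 (adjusted p = 0.000537).

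The activators did not move as one. Arntl had 5.24, 5.50, 5.41, 5.96 and 6.33 at week 16 and 6.41, 6.83, 6.53, 5.72 and 6.62 at week 8, a change of -0.74 ± 0.31 that missed the threshold (adjusted p = 0.0544). Clock rose by 0.88 ± 0.24 (adjusted p = 0.00463), Cry1, a repressor that peaks late, by 0.81 ± 0.24, and Rora, an activator of Arntl, by 1.50 ± 0.30. Clock lost its call in 5 of 25 alternative settings, Cry1 in 5 of 24 and Rora in 3 of 25. With quantile normalization and the 3' minus 5' covariate together none of the 7 genes of this list was called, and their median change was -0.04. The labels do not state the hour at which glands were taken.

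**Figure D3:**
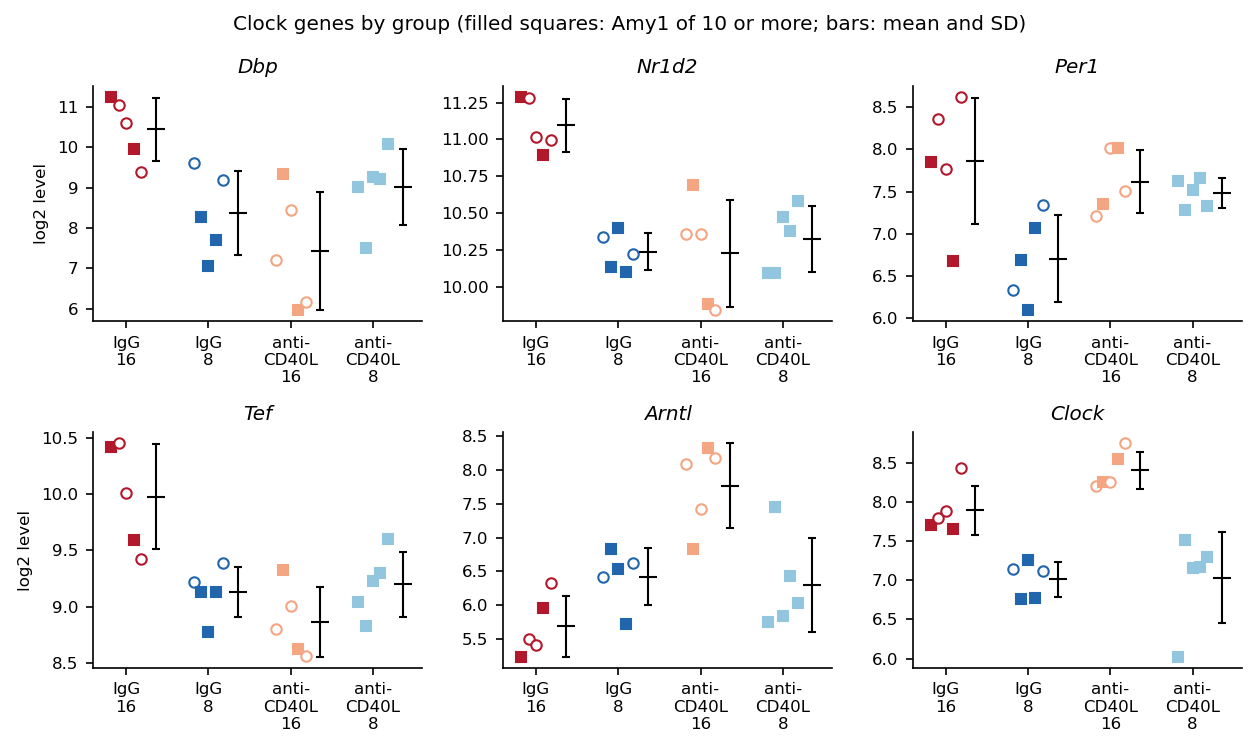
Log2 level of 6 clock genes in the 5 arrays of each group, IgG week 16 and week 8 and anti-CD40L week 16 and week 8; filled squares are arrays with Amy1 of 10 or more and black bars the mean and SD. The means of Dbp, Nr1d2 and Tef were higher at week 16 than at week 8 in IgG glands and lower in anti-CD40L glands, and those of Arntl lay the other way round.

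The folding machinery of the endoplasmic reticulum was higher at week 16. When unfolded protein builds up there, ATF6 is cut and, with NF-Y, binds the ER stress element of chaperone genes, while the PERK branch drives Atf4, Chac1 and Trib3. Of 20 unfolded protein response genes 16 rose and 2 fell, with a median change of 0.54. Promoters of 4 chaperones are shown, in the same format and from the same build, because they hold the ER stress element, searched on both strands as CCAAT and CCACG with 9 bases of any kind between them; capitals mark both outer parts. Hspa5 lies at chr2:34771840-34772139 (plus), Hsp90b1 at chr10:86705395-86705694 (minus), Calr at chr8:84846882-84847181 (minus) and Canx at chr11:50325624-50325923 (minus).
Hspa5: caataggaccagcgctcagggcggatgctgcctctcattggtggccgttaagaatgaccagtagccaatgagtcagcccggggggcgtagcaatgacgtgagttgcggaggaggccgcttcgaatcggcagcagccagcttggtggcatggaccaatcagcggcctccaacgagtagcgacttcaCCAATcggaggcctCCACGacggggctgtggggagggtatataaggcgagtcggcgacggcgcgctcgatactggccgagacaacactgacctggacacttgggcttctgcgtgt
Hsp90b1 (2 matches): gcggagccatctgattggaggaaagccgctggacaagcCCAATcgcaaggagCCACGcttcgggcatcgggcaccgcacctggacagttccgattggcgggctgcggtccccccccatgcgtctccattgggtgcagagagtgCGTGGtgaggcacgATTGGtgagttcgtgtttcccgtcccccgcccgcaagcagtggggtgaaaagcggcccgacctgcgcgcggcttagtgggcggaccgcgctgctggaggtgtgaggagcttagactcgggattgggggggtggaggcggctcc
Calr: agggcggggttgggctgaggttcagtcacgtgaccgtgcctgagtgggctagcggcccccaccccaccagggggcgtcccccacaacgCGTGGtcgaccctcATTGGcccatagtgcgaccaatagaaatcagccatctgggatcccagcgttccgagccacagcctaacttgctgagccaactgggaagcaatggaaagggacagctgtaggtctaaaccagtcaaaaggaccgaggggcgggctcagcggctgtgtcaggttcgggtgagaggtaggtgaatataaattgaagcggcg
Canx: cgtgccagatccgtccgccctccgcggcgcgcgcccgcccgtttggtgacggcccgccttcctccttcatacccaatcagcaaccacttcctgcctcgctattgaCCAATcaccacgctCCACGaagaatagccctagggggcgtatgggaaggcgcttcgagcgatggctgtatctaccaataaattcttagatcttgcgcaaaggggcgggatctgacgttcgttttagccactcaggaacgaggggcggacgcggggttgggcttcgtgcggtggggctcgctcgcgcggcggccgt
Of the 17 tested list members with a promoter in the table, 6 held this element, the 4 shown and Dnajc3 and Pdia6. It occurred in 37 of 27025 genes, or 0.137%.

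All 6 of those genes rose, as did 16 of the 20 genes of the list they came from and 28.4% of all genes tested. The match is again a description of letters only, and binding of ATF6 was not tested. Hspa5, the chaperone BiP, had 13.09, 13.16, 13.11, 12.86 and 13.06 at week 16 and 12.60, 12.56, 12.59, 12.40 and 12.51 at week 8. The groups were apart, the change was 0.53 ± 0.08 (adjusted p = 3.16e-05), and it was 0.45 ± 0.09 with the covariate (adjusted p = 0.00831). Hsp90b1, the chaperone GRP94, rose by 0.50 ± 0.09, Calr, calreticulin, by 0.68 ± 0.11, Canx, calnexin, by 0.55 ± 0.10, Pdia6, a disulfide isomerase, by 0.58 ± 0.14, and Dnajc3, an inhibitor of PERK, by 0.44 ± 0.10. Outside that set, Hyou1, an HSP70 relative of the reticulum, had 10.68, 10.76, 10.64, 10.31 and 10.81 at week 16 and 9.91, 9.93, 9.66, 9.56 and 10.02 at week 8, again without overlap and with a change of 0.83 ± 0.13 (adjusted p = 5.7e-05). Dnajb9, a cofactor of BiP, rose by 0.75 ± 0.14, Atf6 itself by 1.30 ± 0.19, Sel1l, part of the complex that exports misfolded proteins, by 1.13 ± 0.19, and Pdia4, another disulfide isomerase, by 1.02 ± 0.17. The other probe set of Pdia4 differed by -0.35. With the covariate 6 of the 20 were still called higher, namely Hspa5, Hsp90b1, Calr, Hyou1, Dnajb9 and Atf6.

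The 2 that fell were Chac1 and Trib3, both induced by ATF4. Atf4 itself and Asns, which are called members of the same list, rose. Chac1, a glutathione-degrading enzyme, had 8.44, 8.50, 8.53, 9.19 and 9.16 at week 16 and 10.60, 10.37, 9.81, 9.06 and 9.73 at week 8. Week 8 replicate 4 was the 1 week 8 gland within the week 16 range, the change was -1.15 ± 0.39 (adjusted p = 0.0174), and with the covariate it was -1.85 ± 0.46 (adjusted p = 0.0236). Of 12 heat shock genes 10 rose and 1 fell. Hsph1, a cytosolic co-chaperone, rose by 0.86 ± 0.17 and Hspa1a, inducible HSP70, by 0.88 ± 0.20, while Hspe1, the mitochondrial chaperonin cofactor, fell and was lower in every week 16 gland than in any week 8 gland (change -0.32 ± 0.09, adjusted p = 0.00507). With the covariate none of the 12 was called.

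Granular duct, acinar fluid and duct ion transport genes were called higher in part. Of 10 granular duct products 7 rose and none fell, with a median change of 0.37, at levels near the top of the array. Egf, epidermal growth factor, had 13.30, 13.31, 13.20, 13.19 and 13.02 at week 16 and 12.71, 12.61, 12.61, 12.25 and 12.69 at week 8, all week 16 glands being higher, and a change of 0.63 ± 0.14 (adjusted p = 0.00118). Klk1b1 and Klk1b24, kallikreins whose copies are nearly alike so that probes may be shared, rose by 0.57 ± 0.19 and 0.48 ± 0.18. Klk1 changed by 0.08 ± 0.06 and was not called. Of 15 acinar fluid secretion genes 9 rose and none fell: Itpr2, a calcium release channel, by 1.45 ± 0.29, Kcnma1, a potassium channel, by 0.69 ± 0.19, Ano1, the apical chloride channel, by 0.59 ± 0.16, and Aqp5, the apical water channel, by 0.38 ± 0.14. Bhlha15, the transcription factor MIST1 of mature secretory cells, rose by 0.85 ± 0.19 without overlap. Of 16 duct ion transport genes 7 rose, among them Foxi1, the ionocyte factor, by 1.12 ± 0.22, and Cftr, the chloride channel of ionocytes, by 0.96 ± 0.32. With the covariate no granular duct or acinar fluid gene was called, and Aqp5 was left with 0.001 ± 0.14. Of the 16 duct ion transport genes none was then called higher and 1 lower, and their median change was -0.13, against 0.40 without the covariate.

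Of 12 parotid secretory products 1 was called, Lpo, lactoperoxidase, at 0.86 ± 0.22; it is also made outside the parotid. The median change of the 12 was -0.27, with 7 of them below 0, and that of the 13 submandibular and sublingual acinar products was -0.18, with 9 below 0. Of 13 submandibular and sublingual acinar products 2 rose, Bhlha15 and Muc13, a membrane mucin, at 0.94 ± 0.19, and 1 fell. That 1 was Smgc, a secretory protein made mostly in the newborn submandibular gland of rodents, with 12.04, 12.28, 12.33, 12.13 and 11.85 at week 16 and 12.49, 12.67, 12.75, 12.75 and 12.68 at week 8. Every week 16 gland was lower, the change was -0.54 ± 0.15 (adjusted p = 0.0057), and by IgG week 24 the level was lower than at week 8 by a change of -1.15 ± 0.15. With the 3' minus 5' covariate none of the 12 parotid or the 13 submandibular and sublingual products was called at week 16. Their median changes were then 0.06 and 0.03.

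Many connective tissue genes rose. Of 23 fibroblast and collagen genes 12 rose and 1 fell, with a median change of 0.44, and of 12 basement membrane genes 6 rose and 1 fell. Bgn, the small proteoglycan biglycan, had 10.64, 10.67, 10.36, 10.43 and 10.50 at week 16 and 9.87, 9.41, 8.86, 8.44 and 9.46 at week 8, and all week 16 glands were higher. Its change was 1.31 ± 0.26 (adjusted p = 0.0004). Col1a1 and Col1a2, the chains of type I collagen, rose by 1.12 ± 0.28 and 1.002 ± 0.24, and Col14a1, a fibril-associated collagen, by 0.81 ± 0.24. The exception was Eln, elastin, which fell without overlap (change -0.61 ± 0.14, adjusted p = 0.00141). Nid1, a linker of basement membranes, rose by 0.79 ± 0.17. Of 14 myoepithelial and smooth muscle genes 6 rose and none fell, Myh11, smooth muscle myosin, by 1.28 ± 0.30. Of 14 imprinted growth network genes 6 rose, among them Dlk1, a Notch-like surface protein, at 1.16 ± 0.29, and 1 fell, Peg3, a zinc finger gene, by a change of -0.52 ± 0.19. With the covariate none of these genes was called, and Bgn was left with 0.52 ± 0.24.

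**Figure D4:**
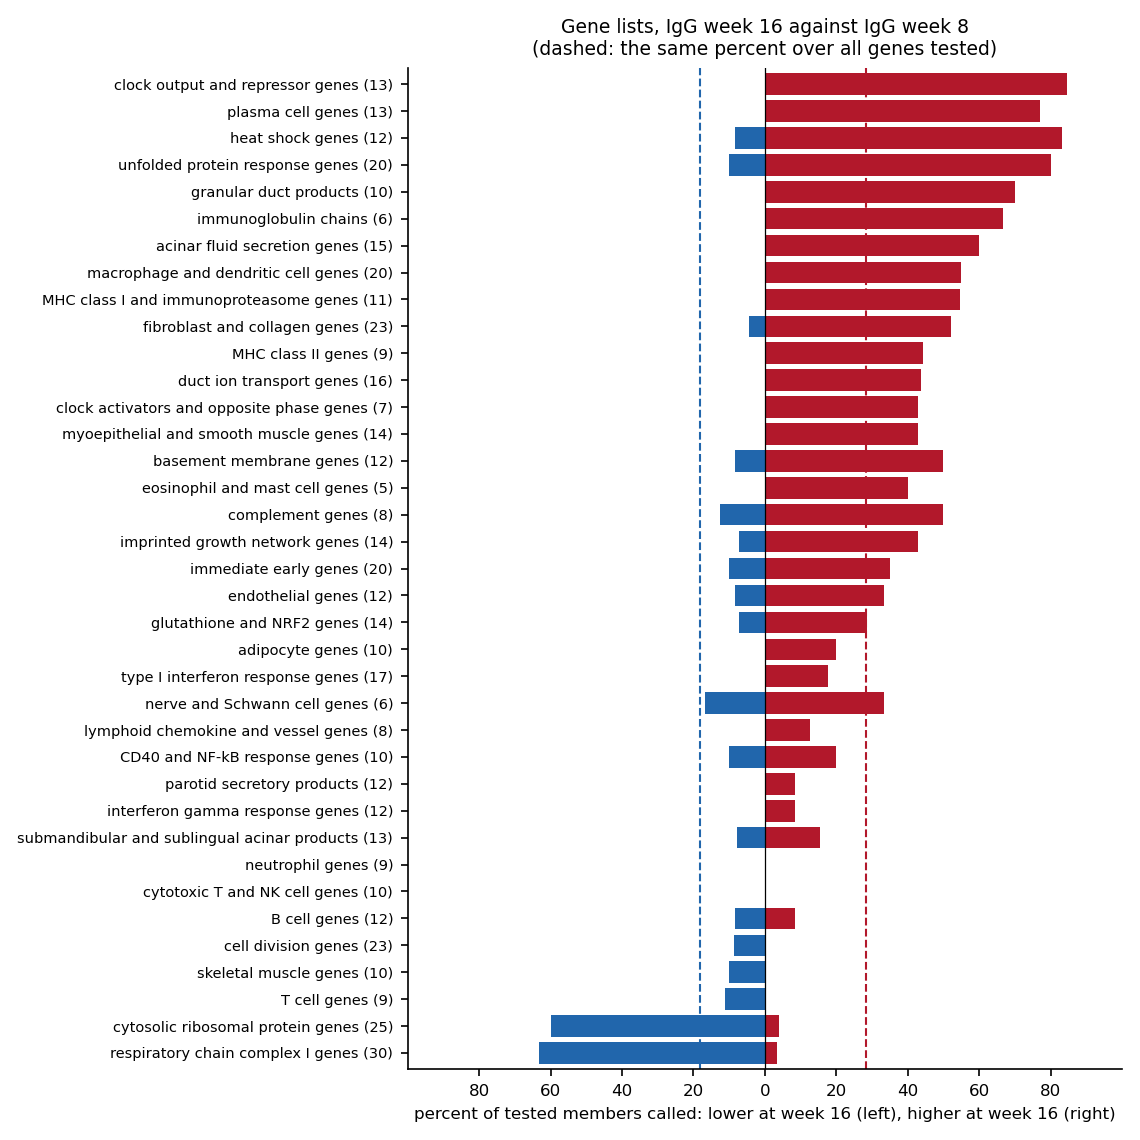
Percent of the tested members of each gene list (number tested in brackets) called higher at week 16 (red, to the right) or lower at week 16 (blue, to the left) in IgG glands; the dashed lines give 28.4% higher and 18.1% lower over all 12999 genes. Clock output, heat shock, unfolded protein response and plasma cell lists had the longest bars to the right and complex I and ribosomal protein lists to the left.

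Among genes that were lower at week 16, 1 stood far from the rest. 5530400C23Rik, an uncharacterised transcript on chromosome 6, had 4.68, 7.22, 6.76, 6.04 and 5.80 at week 16 and 9.72, 9.05, 9.62, 10.18 and 9.64 at week 8. The groups did not overlap, and the change of -3.54 ± 0.48 (adjusted p = 2.41e-05) was -3.37 ± 0.63 with the covariate (adjusted p = 0.00545). Its change was -2.99 ± 0.48 in the anti-CD40L arrays of the same ages and -5.40 ± 0.48 from IgG week 8 to IgG week 24. The next largest fall was that of Krt13, a keratin of mucosal epithelium, with 4.79, 4.63, 5.20, 5.21 and 4.69 at week 16 and 6.67, 6.78, 5.81, 7.16 and 5.98 at week 8, no overlap and a change of -1.57 ± 0.43. Its other 2 probe sets differed by 0.02 and 0.06.

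The remaining 10 of the 12 largest falls had changes between -1.43 and -1.28, and each had all 5 week 16 glands below all 5 week 8 glands, which was true of 10.4% of all genes tested. They were Itgb3bp, a centromere protein, Rpa3, the small subunit of the single-strand DNA binding complex RPA, Mtln, a mitochondrial micropeptide, Snhg3, a snoRNA host gene, Zfp931, Vwc2, 2410006H16Rik, 9530002B09Rik, 4930415O20Rik and 2010320M18Rik. Rpa3, 4930415O20Rik and 2010320M18Rik were also called with the covariate. The largest rises outside the immunoglobulin and J chain genes were Usp2, Pofut2, Nfix, Oasl2 and Ctse. Nfix, a transcription factor, had 11.37, 11.16, 11.20, 11.02 and 11.20 at week 16 and 10.08, 9.57, 7.48, 7.03 and 10.05 at week 8, and Pofut2, a fucosyltransferase of the reticulum, had 9.62, 9.90, 9.84, 7.45 and 9.89 at week 16 and 9.31, 6.72, 5.88, 4.46 and 7.18 at week 8. In both, week 8 replicates 3 and 4, the arrays with the largest 3' minus 5' difference, were lowest; Nfix did not overlap between the ages, and Pofut2 did, through week 16 replicate 4 and week 8 replicate 1. With the covariate Nfix was left with 0.28 ± 0.43 and Pofut2 with 0.77 ± 0.73, against 2.35 ± 0.58 and 2.63 ± 0.71 without it. Ctse, the protease cathepsin E, rose by 2.16 ± 0.47 without overlap.

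Genes of the respiratory chain and of the ribosome were lower as lists. Of 30 respiratory chain complex I genes 19 fell and 1 rose, with a median change of -0.30, and of 25 cytosolic ribosomal protein genes 15 fell and 1 rose, with a median of -0.19. With quantile normalization the counts were 19 and 14 lower. Ndufb3, an accessory subunit of complex I, had 10.90, 10.96, 11.03, 10.93 and 10.98 at week 16 and 11.51, 11.40, 11.47, 11.47 and 11.38 at week 8. The shift was small and without overlap, -0.49 ± 0.08 (adjusted p = 0.000131), and -0.43 ± 0.11 with the covariate. Ndufa2 and Ndufs4, further subunits, changed by -0.61 ± 0.10 and -0.67 ± 0.11, and Ndufb2 by -0.75 ± 0.13. Rpl37, a protein of the large ribosomal subunit, had 9.28, 9.11, 9.41, 9.46 and 9.42 at week 16 and 10.03, 10.06, 9.73, 9.89 and 9.87 at week 8, a change of -0.58 ± 0.10 (adjusted p = 0.000173) that was -0.60 ± 0.13 with the covariate. With the covariate 4 of the 30 complex I genes and 1 of the 25 ribosomal protein genes were called lower.

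**Figure D5:**
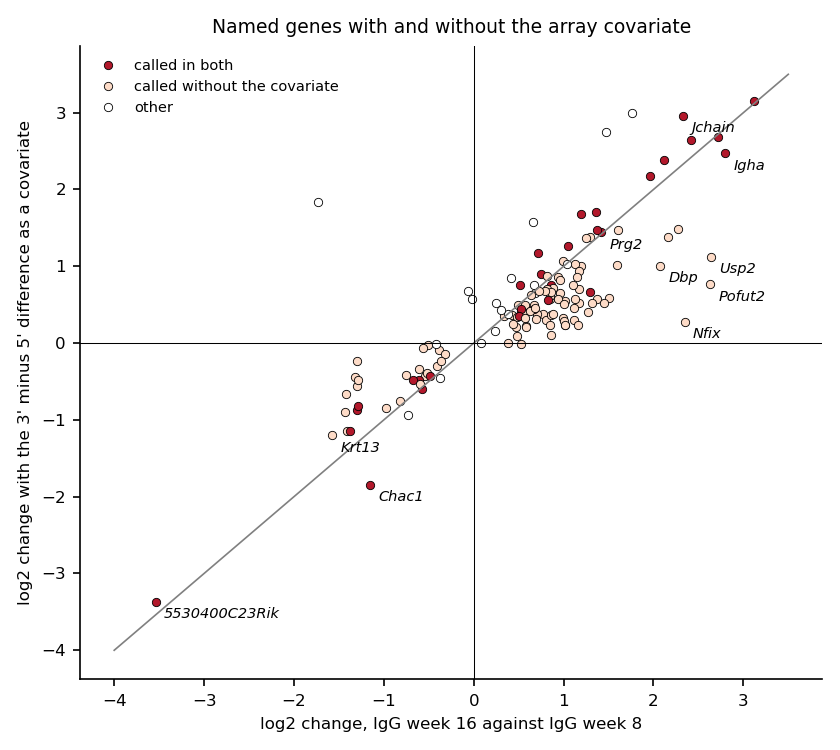
Log2 change of each named gene, IgG week 16 against IgG week 8, without (horizontal) and with (vertical) the 3' minus 5' difference of the array as a covariate; the grey line marks equal values and Amy1 is left out. Of 124 named genes called without it 30 were also called with it (dark red), Igha, Jchain, Prg2 and 5530400C23Rik among them, while Nfix, Pofut2, Usp2 and Dbp lay well below the line.

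The anti-CD40L arrays of the same ages, which share no array with the IgG comparison, show which of these changes were also present after the other antibody. There 4751 genes were called (36.5%), 3128 higher (24.1%) and 1623 lower (12.5%). With quantile normalization 4394 were called and the split turned there too, with 1712 higher and 2682 lower. Amy1 was at 10 or more in 2 of the 5 anti-CD40L week 16 arrays and in 5 of the 5 anti-CD40L week 8 arrays, and with Amy1 as a covariate 2658 genes were called there. Array quality moved with age in this arm too. The interquartile range was 3.059 to 3.165 at week 16 and 2.748 to 2.982 at week 8. The 3' minus 5' difference was 0.207 to 0.302 at week 16 and 0.257 to 0.516 at week 8. With that difference as a covariate 3386 genes were called. The part of array quality in calls shared by both arms was not tested. Of the 3690 genes higher in IgG glands 2072 were also higher there, which was 56.2% of the IgG list and 66.2% of the anti-CD40L list, and of the 2357 lower genes 978 were also lower, 41.5% and 60.3% of the lists. Igha changed by 2.80 ± 0.27 in IgG glands and by 2.46 ± 0.27 in anti-CD40L glands. Jchain changed by 2.32 ± 0.34 in IgG glands and 1.54 ± 0.34 in anti-CD40L glands, and Hspa5 by 0.53 ± 0.08 and 0.48 ± 0.08. Levels of Igha and Jchain were lower in anti-CD40L glands at both ages, a difference that was not tested. At week 16 Igha lay between 10.81 and 11.96 there, and the lowest IgG gland had 13.13. At week 8 Igha lay between 8.22 and 9.32, and the lowest IgG gland had 9.76. Jchain lay between 8.35 and 9.30 at week 16, and the lowest IgG gland had 11.49. At week 8 Jchain lay between 6.72 and 7.45, and the lowest IgG gland had 8.29. Prg2 changed by 1.42 ± 0.22 in IgG glands and 0.08 ± 0.22 in anti-CD40L glands, and the difference of these changes, 1.34 ± 0.31, missed the threshold (adjusted p = 0.0617).

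The change with age itself differed between the antibodies, by the interaction contrast of the same fit, in 19 genes (0.146%), 3 with a positive difference, IgG minus anti-CD40L (0.0231%), and 16 with a negative one (0.123%). With the 3' minus 5' covariate none of them was called. Arntl was 1 of the 19, and in the anti-CD40L glands it had 8.08, 6.83, 7.42, 8.33 and 8.17 at week 16 and 5.75, 7.46, 5.85, 6.43 and 6.04 at week 8. Its change was -0.74 ± 0.31 in IgG glands and 1.46 ± 0.31 in anti-CD40L glands, a difference of -2.20 ± 0.44 (adjusted p = 0.043). Nr1d2 changed by 0.86 ± 0.15 in IgG glands and -0.10 ± 0.15 in anti-CD40L glands, a difference of 0.95 ± 0.21 (adjusted p = 0.0491). Dbp, with 2.07 ± 0.61 in IgG glands and -1.59 ± 0.61 in anti-CD40L glands, did not pass for the difference (adjusted p = 0.0619). Cpxm1, a secreted carboxypeptidase-like protein, changed by 1.10 ± 0.22 in IgG glands and -0.66 ± 0.22 in anti-CD40L glands, and Clec3b, the plasma and matrix protein tetranectin, by 0.73 ± 0.17 and -0.47 ± 0.17.

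Of the 38 lists, cell division genes are the one in which the antibodies' median changes lay farthest apart, at -0.09 in IgG glands and 1.21 in anti-CD40L glands. Of its 23 genes none rose and 2 fell in IgG glands, and 16 rose and 1 fell in anti-CD40L glands, yet none passed the test of the difference. The mean level of the list ranged from 6.21 to 9.02 in anti-CD40L week 16 glands and from 6.17 to 6.60 in IgG week 16 glands. Cdk1, the kinase of mitotic entry, had 7.09, 6.25, 6.75, 6.78 and 6.12 in IgG glands at week 16 and 7.32, 6.81, 7.17, 6.99 and 6.82 at week 8. In anti-CD40L glands Cdk1 had 8.27, 8.85, 8.05, 6.96 and 10.50 at week 16 and 7.09, 6.76, 6.91, 6.53 and 6.75 at week 8. Its change was -0.42 ± 0.39 in IgG glands and 1.72 ± 0.39 in anti-CD40L glands, and the difference did not pass (adjusted p = 0.0883). The 2 that fell in IgG glands were Cdc20, an activator of the anaphase complex, and Kif11, a spindle motor, by changes of -0.60 ± 0.16 and -0.56 ± 0.18. Over the alternative settings Cdc20 lost its call in 5 of 25 and Kif11 in 7 of 23. With the 3' minus 5' covariate none of the 23 genes was called in IgG glands, and their median change was 0.19.

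Values at IgG week 24 are set beside these, sharing the week 8 arrays. Igha differed from week 8 by 2.80 ± 0.27 at week 16 and by 2.75 ± 0.27 at week 24, so that its level was 13.45 at week 16 and 13.40 at week 24. Prg2 differed from week 8 by 1.42 ± 0.22 at week 16 and 2.85 ± 0.22 at week 24. Ighm differed from week 8 by 0.25 ± 0.77 at week 16 and by 3.66 ± 0.77 at week 24, where it was called (adjusted p = 0.00387), and Ighg3 by -0.38 ± 0.41 at week 16 and 2.06 ± 0.41 at week 24 (adjusted p = 0.00258). Ms4a1 differed by -0.07 ± 0.59 at week 16 and 2.85 ± 0.59 at week 24. Of the 12 B cell genes 9 were called higher at week 24 against week 8, where 1624 of all genes were called (12.5%; 8.49% higher and 4.01% lower), as against 1 at week 16.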

How the data were processed

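Total salivary gland RNA was measured on 30 arrays, 5 in each of 6 groups, of the type Affymetrix Mouse Genome 430 2.0, labelled from 2 ug of RNA per the labels' protocols. The authors deposited 1 table of processed log2 values for 45101 probe sets; limma is named in the submitters' processing notes without a version, and the summarisation and normalization are not given in the sources used here. Probe sets of exactly 1 symbol in the platform annotation (34958) gave 18194 genes, each taken from its brightest probe set over all arrays. A gene was tested if it exceeded the array median in at least 5 arrays (12999 genes). Differences between group means came from a fit of all 30 arrays (limma 3.58.1 under R 4.3.3) with moderated statistics and Benjamini-Hochberg adjustment over all genes tested, and the script was tested on simulated data. Single array measures were compared by two-sided exact permutation tests, for which 0.00794 is the smallest p that 5 against 5 allows, adjusted over 4 measures. No depth exists for arrays, and their number limits the precision. The members and the 38 gene lists (655 entries, 485 tested) were chosen with earlier results of these data known. Named genes were the 12 largest rises and falls, called list members and up to 4 further members of each list, Cd40, Cd40lg, Amy1 and the 6 largest interactions. Some kappa light chain variable genes that this rule names are not reported here by name, though they are in every count. Batches are not given in the sources used here. Alternatives covered normalization, filter, probe set choice, arrays, covariates and leaving out each array.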

Additional observations from a re-analysis of the deposited data

Results flagged for a closer look

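In 9 of 292 groups of 5 arrays examined, 1 array stood apart from the other 4 by Dixon's criterion; chance alone gives about 1 in 20 groups, or 14.6. At week 8, replicate 3 was apart for Cxcl9, an interferon-induced chemokine named after its values were seen, with 9.916 where the other 4 arrays had 4.868 to 5.509. The same array was apart for Rsad2, with 8.195 where the others had 7.366 to 7.541, and for Igkv6-14, with 4.884 where the others had 3.956 to 4.086. Week 8 replicate 4 was low for Ddx58, with 6.766 where the others had 7.491 to 7.665, and for Egf, with 12.251 where the others had 12.605 to 12.709. At week 16, replicate 4 was low for Pofut2, with 7.453 where the others had 9.621 to 9.903, and for Creld2, with 9.664 where the others had 10.183 to 10.31. Week 16 replicate 2 was high for Kit, with 7.616 where the others had 7.235 to 7.268, and week 16 replicate 5 was low for Klk1b1, with 12.152 where the others had 12.55 to 12.679.

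For 7 named genes the change from week 8 to week 16 differed between IgG and anti-CD40L glands by the interaction test. The difference, IgG minus anti-CD40L, was -2.199 for Arntl (adjusted p = 0.043), 1.758 for Cpxm1 (adjusted p = 0.0231), 1.196 for Clec3b (adjusted p = 0.0342) and 0.952 for Nr1d2 (adjusted p = 0.0491). It was -1.485 for Ugt8a, a galactosyltransferase of myelin lipids (adjusted p = 0.0491), -1.336 for Slc36a4, an amino acid transporter (adjusted p = 0.0451), and -1.229 for Ezhip, an inhibitor of the Polycomb methyltransferase (adjusted p = 0.0451). Ugt8a and Slc36a4 changed by 1.86 ± 0.23 and 1.64 ± 0.20 in anti-CD40L glands and were not called in IgG glands, at 0.38 ± 0.23 and 0.30 ± 0.20; Ezhip fell in IgG glands by a change of -0.82 ± 0.18.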

How the results depend on the processing

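For IgG week 16 against week 8 (6047 called) the count was 620 with that difference as a covariate, 1062 with quantile normalization added to it, 2546 in arrays with a difference under 0.45 (5 of week 16 and 2 of week 8), 2186 in arrays with Amy1 under 10, and 3501 in arrays with Amy1 of 10 or more. Quantile normalization alone gave 6236, of which 42% were higher, against 61% as deposited. Leaving out 1 array gave 4446 to 6782, the lowest without week 8 replicate 4. The other alternatives gave 4331 to 6403.

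For anti-CD40L week 16 against week 8 (4751 called) the count was 2658 with Amy1 as a covariate, 1451 in arrays with Amy1 of 10 or more, 2478 in arrays that correlated well with the others (5 of week 16 and 3 of week 8 in each arm; a setting added after seeing the data, like the 2 above that use quantile normalization with the covariate or a difference under 0.45), and 3137 to 5298 with 1 array left out. No anti-CD40L week 8 array had Amy1 under 10, so that split gave no value there. The interaction count of 19 came to 0 with the 3' minus 5' covariate, 1 in arrays with Amy1 of 10 or more, 0 with quantile normalization and the covariate together, 2 with the replicate block, 4 under 0.45, 33 with the filter at the 70th percentile, 39 with only the groups compared, 50 in the well-correlated arrays, 57 with quantile normalization, 89 with Amy1 as a covariate, 263 with array weights, and 0 to 52 with 1 array left out. At an unadjusted p under 0.05, 1771 genes differed.

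The replicate numbers share only a number between the ages: same-numbered arrays correlated in their deviations by 0.041, -0.017, -0.203, 0.293 and 0.374, and no week 16 array correlated best with its own number. With the replicate block 5937 genes were called in IgG glands and 4632 in anti-CD40L glands.

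Of 3547 values of named genes under the alternatives, 3017 kept their direction and side of the threshold, 465 lost the call, 22 gained it and 43 turned sign or, for Amy1 with its own level as the covariate, came to 0 by construction. Most of the 43 were values of genes not called under either setting. With the median over probe sets the change was -0.109 for Laptm5, -0.317 for Ddx58, -0.047 for Tnfaip3 -0.124 for Pdgfra and -0.084 for Klk1. Nr1d1 was at -0.008 with the 3' minus 5' covariate and -0.087 with quantile normalization added, where Aqp5 was at -0.003 and Klk1 at -0.009. Ms4a1, Cd3d, Amy1 and Dnase1 turned positive. With the 3' minus 5' covariate they were at 0.672, 0.574, 1.966 and 1.842, with quantile normalization added at 0.653, 0.539, 1.903 and 1.781, and in arrays with a difference under 0.45 at 0.81, 0.808, 1.951 and 1.85. With Amy1 as a covariate Ms4a1 was at 0.122 and Cd3d at 0.148, in amylase-high arrays at 0.969 and 0.53, and in well-correlated arrays at 0.256 and 0.192, where Amy1 was at 0.098. In arrays with Amy1 under 10, Cd3d was at 0.07 and Amy1 at 0.005. With 1 array left out, Ighm ranged over -0.545 (without week 16 replicate 4) to 0.958, Ms4a1 over -0.553 to 0.244 and Cd3d over -0.357 to 0.259, none of them called. The causes of these moves were not tested.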

Other observations

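Ccl11, Slpi and Clec10a were picked after their values were seen and are described only. Ccl11, the eosinophil-attracting chemokine eotaxin, had 8.12, 7.86, 8.08, 7.59 and 8.19 in the IgG week 16 glands and 7.70, 7.05, 6.53, 6.82 and 4.89 in the IgG week 8 glands, with week 8 replicate 1 the only gland in the week 16 range, and its change was 1.37 ± 0.31 (adjusted p = 0.00103). Slpi, a secreted inhibitor of neutrophil elastase, had 10.43, 9.99, 9.21, 10.46 and 9.66 at week 16 and 8.14, 8.88, 9.06, 8.78 and 8.09 at week 8, without overlap, and a change of 1.36 ± 0.27 (adjusted p = 0.000433). Clec10a, a lectin of macrophages and dendritic cells, had 7.24, 6.51, 6.27, 7.19 and 6.39 at week 16 and 6.01, 5.68, 6.13, 5.59 and 4.93 at week 8, also without overlap, and a change of 1.05 ± 0.28 (adjusted p = 0.00376). With the 3' minus 5' covariate all 3 were still called, at 1.47 ± 0.40, 1.71 ± 0.34 and 1.27 ± 0.36.

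Fat cell genes varied widely between arrays of the same age. Adipoq, the adipocyte hormone adiponectin, had 7.05, 9.78, 5.44, 8.23 and 3.49 in the IgG week 16 glands and 3.88, 5.81, 8.14, 4.98 and 3.81 in the IgG week 8 glands, and Car3, a carbonic anhydrase abundant in fat and muscle, had 10.36, 12.24, 8.74, 11.26 and 5.33 at week 16 and 6.75, 9.45, 10.40, 7.57 and 4.99 at week 8. The week 8 range of Adipoq lay within its week 16 range, the ranges of Car3 overlapped, and neither gene was called.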
